A study of Mus musculus with 6 samples.

Results

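Metallothioneins are small proteins rich in cysteine that hold zinc and copper inside the cell. Zinc that is free in the cytosol activates MTF1, a zinc finger transcription factor, which binds short DNA motifs called metal response elements and induces the metallothionein genes and the zinc exporter gene Slc30a1. SLC30 proteins carry zinc out of the cytosol and SLC39 proteins carry it in, and metallothionein transcripts are also known to respond to glucocorticoids and to interleukin-6 and to rise in mouse muscle that is wasting. The 6 genes described here are Mt1 and Mt2, the widely expressed metallothioneins, Mtf1, Slc30a1, and the importers Slc39a10 and Slc39a14. Out of 39059 genes counted, these 6 were chosen by name for their roles and selected on their levels in the same comparison of genotypes. Their values between genotypes are therefore a description and carry no test. The lists of other genes below were also chosen with earlier results of these data known. Counts of their genes called, and the adjusted p printed for those genes, are a description too.

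Satellite cells are muscle stem cells, and here they came from hind-limb muscle of mice on the C57BL/6J background, purified by cell sorting, at postnatal day 19, for sequencing of total RNA. The 3 homozygous libraries (HOM) came from mice with the genotype Lmna Δ8-11 -/-, which lack part of Lmna, the gene that encodes A-type nuclear lamins, and the 3 wild-type libraries (WT) from Lmna Δ8-11 +/+ mice. The deletion is constitutive, so cells other than satellite cells carry it too, and the allele has been reported to leave a truncated lamin A product. The labels give 3 mice per condition but do not tie each library to 1 animal, so the statistics measure the spread between these samples, which may be partly technical.

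Reads assigned to genes ran from 7234298 to 9552751 in HOM and from 6613636 to 8426578 in WT libraries. Lmna was at 421 ± 40.0 CPM (read counts scaled to a common library total) in HOM and 946 ± 108 CPM in WT libraries (SD, n = 3 each), a log2 fold change of -1.17 (SE 0.14, edgeR adjusted p = 0.0010). This count includes undeleted exons, so it is a partial check of the labels. Markers are counted below as higher or lower in HOM libraries at an edgeR adjusted p under 0.05. Of all genes tested, 9.67% were higher and 11.5% lower by this measure. Of 10 satellite cell markers, 6 were lower in HOM libraries and 0 higher. Their summed levels were 1256 to 2096 CPM in HOM and 2498 to 2672 CPM in WT libraries. Markers of smooth muscle and pericytes were more abundant than these, at 11719 to 12514 CPM in HOM and 11327 to 16081 CPM in WT libraries, with 1 of 7 higher and 1 lower. Of 5 adipocyte markers, the 3 that could be tested were higher, and Lep had 0 reads in HOM and 1 in WT. The sums were 382 to 718 CPM in HOM and 181 to 293 CPM in WT libraries. Fabp4 made up most of them, at 354, 407 and 615 CPM in HOM and 293, 180 and 241 CPM in WT replicates 1, 2 and 3. In HOM, Adipoq was at 9.09, 6.47 and 37.2 CPM and Cidec at 18.3, 10.9 and 64.7 CPM, both highest in replicate 3. Neither exceeded 0.508 CPM in a WT library. Markers of fibro-adipogenic progenitors summed to 1293 to 1926 CPM in HOM and 3801 to 4063 CPM in WT libraries, with 1 of 6 higher and 3 lower. Of the other markers, 3 of 5 erythroid genes were lower, 1 of 5 Schwann genes was higher and 3 lower, 1 of 4 tested leukocyte genes was higher, and 0 of 5 endothelial genes passed. In bulk RNA, fewer cells of a type and less RNA per cell cannot be told apart, and the part of these cell types in the results below was not tested. HOM replicate 2 held the most satellite cell RNA of the HOM libraries (2096 against 1256 and 1271 CPM). It also shared with WT replicate 2 a high level of the predicted gene Gm42418, at 13195 and 14614 CPM, where the other 4 libraries stood at 939 to 1810 CPM. Genes of the Y chromosome had 1, 4498 and 3 reads in HOM replicates 1, 2 and 3, against 0, 3074 and 4831 reads in WT replicates 1, 2 and 3, so libraries with Y-linked reads were unevenly spread over the genotypes. With a covariate for Y-linked reads, the log2 fold changes were 1.21 for Mt1, 1.56 for Mt2, 0.47 for Mtf1 and 0.69 for Slc39a14.

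The start regions of Mt1, Mt2 and Slc30a1 are shown because MTF1 is known to act on them through metal response elements. Promoters of 5 of the 6 genes were matched in RefSeq on build GRCm38.p6. The 250 bases before each annotated start are given 5′ to 3′ on the plus strand, in lower case, with the core of the metal response element, TGCACNC or TGCGCNC on either strand, in capitals.
Mt1, chr8:94178839-94179088: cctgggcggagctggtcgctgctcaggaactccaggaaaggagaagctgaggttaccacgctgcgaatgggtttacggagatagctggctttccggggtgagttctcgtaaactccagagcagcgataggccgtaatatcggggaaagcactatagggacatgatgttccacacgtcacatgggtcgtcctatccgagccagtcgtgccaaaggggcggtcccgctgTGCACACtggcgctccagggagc
Mt2, chr8:94172368-94172617: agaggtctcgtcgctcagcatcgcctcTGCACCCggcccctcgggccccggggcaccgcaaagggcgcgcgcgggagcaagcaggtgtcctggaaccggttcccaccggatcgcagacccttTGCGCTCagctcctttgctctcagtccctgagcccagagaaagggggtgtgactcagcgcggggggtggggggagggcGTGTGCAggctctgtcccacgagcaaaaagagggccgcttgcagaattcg
Slc30a1, chr1:191906531-191906780: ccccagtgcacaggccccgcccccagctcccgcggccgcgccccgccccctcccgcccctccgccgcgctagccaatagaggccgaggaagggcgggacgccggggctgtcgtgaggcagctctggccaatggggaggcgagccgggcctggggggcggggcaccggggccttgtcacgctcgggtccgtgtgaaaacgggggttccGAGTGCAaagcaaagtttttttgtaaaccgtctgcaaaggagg
For Mt1, the 30 bases from the annotated start onward hold 2 more cores.
Mt1, chr8:94179089-94179118: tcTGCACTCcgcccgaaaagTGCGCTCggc

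In windows of 300 bases, from 250 before the start to 50 after it, Mt1 held 3 cores, Mt2 held 4 and Slc30a1 held 2. Relative to the annotated start, the Mt1 cores began 23 bases before it and 2 and 20 bases after it. Only 1 RefSeq start of Mt1 was used, so positions before and after it hold for that start alone. Where transcription of Mt1 starts in these cells was not tested. Bases beyond the window were not searched, so cores around another start could be missed or placed differently. The Mt2 cores began 223, 128 and 50 bases before the start and 4 bases after it. Those of Slc30a1, both on the strand opposite to the gene, began 43 bases before the start and 30 bases after it. The windows of Mtf1 and of both RefSeq starts of Slc39a10 held 0 cores, and no promoter was matched for Slc39a14. The Slc39a10 window at chr1:46925727-46926026 lies outside the positions given for the gene below. The upstream end of those positions, at 46892852, was not searched. At least 1 core was found in 25.7% of 32851 promoters of the same length, and at least 3 in 1.97%. A match of letters is not a binding site, and its absence says only that these letters are not in the window.

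**Figure D1:**
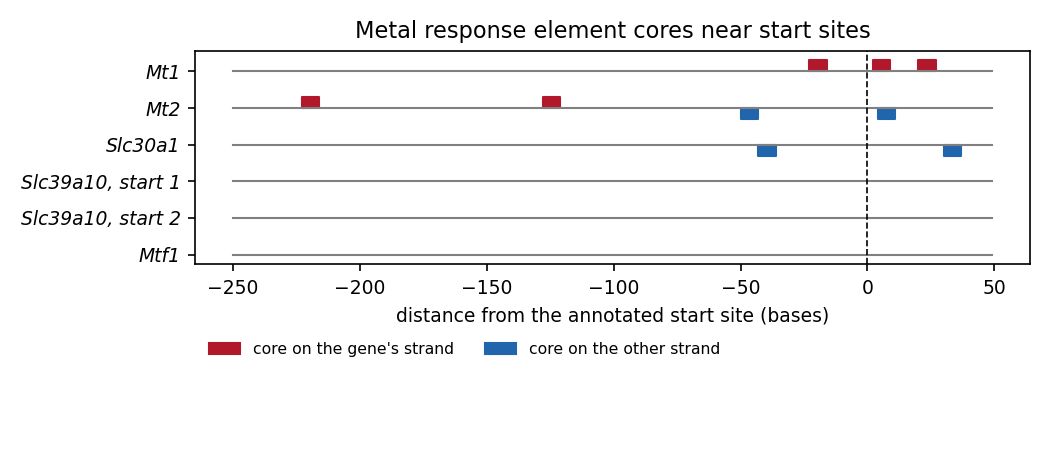
Positions of metal response element cores (TGCACNC or TGCGCNC) in 300 bases around annotated start sites, with distance from the start in bases on the x axis and 1 row per start site. Boxes above a line are on the gene's own strand and boxes below it on the other strand, and Mt1, Mt2 and Slc30a1 hold 3, 4 and 2 cores while Slc39a10 and Mtf1 hold 0.

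Both metallothionein genes stood higher in every HOM library than in every WT library. Mt1 (ENSMUSG00000031765, chromosome 8, positions 94179082 to 94180327, plus strand, build GRCm38) was at 638, 360.0 and 644 CPM in HOM replicates 1, 2 and 3, against 203, 229.9 and 192 CPM in WT replicates 1, 2 and 3. HOM replicate 2 was the lowest HOM library and still lay above the highest WT library. The group means were 547 ± 162 CPM in HOM and 208 ± 19.4 CPM in WT libraries (SD, n = 3 each), a log2 fold change of 1.39 (SE 0.21), or 2.63-fold. By abundance Mt1 ranked 169 of 14099 tested genes in HOM and 708 in WT libraries.

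Mt2 (ENSMUSG00000031762, chromosome 8, positions 94172664 to 94173568, plus strand) was at 376, 251 and 281 CPM in HOM replicates 1, 2 and 3, against 88.2, 107 and 106 CPM in WT replicates 1, 2 and 3. The groups did not overlap, and HOM replicate 2 was again the lowest HOM library. The log2 fold change was 1.59 (SE 0.17), or 3.02-fold, on means of 303 ± 65.0 CPM in HOM and 100.3 ± 10.6 CPM in WT libraries (SD, n = 3 each). Without HOM replicate 2 and WT replicate 2, the libraries high in Gm42418, the log2 fold changes were 1.69 for Mt1 and 1.76 for Mt2. Gm45774, on the opposite strand, covers 73.5% of the exonic bases of Mt2, and had 57, 48 and 46 reads in HOM against 15, 13 and 17 in WT libraries, where Mt2 had 2686, 2371 and 2144 in HOM against 762, 675 and 831 in WT libraries. Whether reads were counted by strand is not known from the sources used here, and the level and rank of Mt2 rest on it. No stretch of 50 bases of the annotated Mt1 or Mt2 transcripts was found in a transcript of another gene.

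Taken as a pair, the 2 metallothioneins made up 1014, 611 and 925 CPM in HOM against 292, 337 and 297 CPM in WT libraries. The ratio of Mt1 to Mt2 reads was 1.70, 1.43 and 2.30 in HOM replicates 1, 2 and 3, against 2.31, 2.14 and 1.82 in WT replicates 1, 2 and 3. These ranges overlapped, so the balance between the pair varied among libraries of 1 genotype as much as between genotypes. Mt3, a metallothionein best known from brain, was low at 5.19 ± 1.88 CPM in HOM and 3.24 ± 0.758 CPM in WT libraries and did not pass the test (log2 fold change 0.69, SE 0.33, edgeR adjusted p = 0.164). Mt4, known from stratified epithelium, had 2 reads in HOM and 0 in WT libraries.

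**Figure D2:**
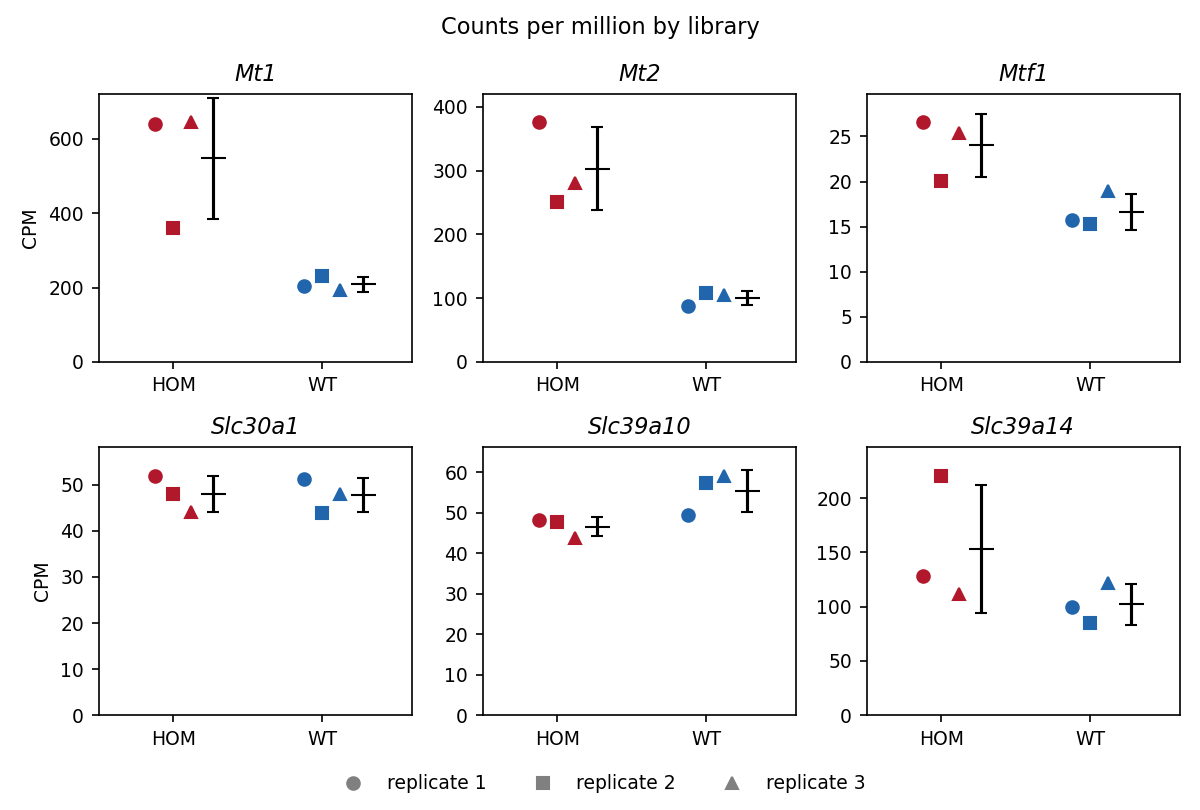
CPM of the 6 genes in each library, HOM left of WT, with a panel and a linear y axis from 0 for each gene, symbols for the replicate number, and the mean with its SD (n = 3) in black. Mt1, Mt2 and Mtf1 lie higher in all 3 HOM libraries, Slc39a10 lies lower, and Slc30a1 and Slc39a14 overlap, with HOM replicate 2 far above the rest for Slc39a14.

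Mtf1, which encodes the metal-sensing factor (chromosome 4, positions 124802104 to 124849800, plus strand), differed by less. It stood at 26.6, 20.04 and 25.4 CPM in HOM replicates 1, 2 and 3, against 15.7, 15.3 and 18.9 CPM in WT replicates 1, 2 and 3. The groups were close but did not overlap, with 20.04 CPM as the lowest HOM and 18.9 CPM as the highest WT value. The log2 fold change was 0.52 (SE 0.16). It ran from 0.45 without HOM replicate 1 to 0.64 without HOM replicate 2. The gene 1110065P20Rik overlaps 8.09% of its exonic bases on the opposite strand.

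Slc30a1, the exporter that carries zinc across the plasma membrane (chromosome 1, positions 191906767 to 191913247, plus strand), was at 52.03, 48.03 and 44.1 CPM in HOM against 51.3, 43.9 and 48.0 CPM in WT libraries. The groups overlapped almost fully. Its log2 fold change was 0.0085 (SE 0.12), and it ran from -0.050 to 0.069 over all alternatives. The gene is known as a target of MTF1 in mouse.

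Slc39a10, an importer of the plasma membrane whose transcript MTF1 is known to repress in mouse (chromosome 1, positions 46807544 to 46892852, minus strand), was at 48.3, 47.6 and 43.9 CPM in HOM against 49.5, 57.2 and 59.2 CPM in WT libraries. Each HOM library lay below each WT library, by as little as 48.3 against 49.5 CPM. The log2 fold change was -0.25 (SE 0.12) and lay between -0.33 and -0.20 in all alternatives.

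Slc39a14, an importer that carries zinc, iron and manganese and is known to be induced by interleukin-6 in mouse liver (chromosome 14, positions 70303469 to 70351425, minus strand), was at 128, 220.7 and 111 CPM in HOM against 99.2, 85.05 and 122 CPM in WT libraries. HOM replicate 2 stood apart, and the other HOM libraries lay within or next to the WT range. The log2 fold change of 0.59 (SE 0.24) was 0.23 without HOM replicate 2 and 0.11 without both replicate 2 libraries. HOM replicate 2 was thus the highest HOM library for Slc39a14 and for satellite cell markers, and the lowest for Mt1, Mt2 and Mtf1.

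All 6 genes passed the filter on low counts. In edgeR's quasi-likelihood fit over all genes, Mt1, Mt2 and Mtf1 were under the threshold of 0.05 for the adjusted p, 3 of the 6 and all higher in HOM, where 21.1% of 14099 genes were called in either direction and 9.67% as higher. The groups did not overlap for 4 of the 6, and for 40.7% of all genes tested. Since the genes were named from this comparison, nothing is read from these counts. Mt1 and Mt2 were called under all 14 alternatives, Mtf1 under 6, Slc39a14 under 2, and Slc30a1 and Slc39a10 under 0. These fits reuse the same libraries, so they too are a description and carry no test. With 1 library left out, calls over all genes ran from 1576 of 14474 tested, without HOM replicate 3, to 4002 of 14531, without HOM replicate 2. Mtf1 was not called without HOM replicate 1, HOM replicate 3 or any 1 WT replicate, nor with the replicate number as a block, with the covariate for Y-linked reads or in the DESeq2 Wald test. Slc39a14 was called without a filter on low counts and with the covariate for Y-linked reads.

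**Figure D3:**
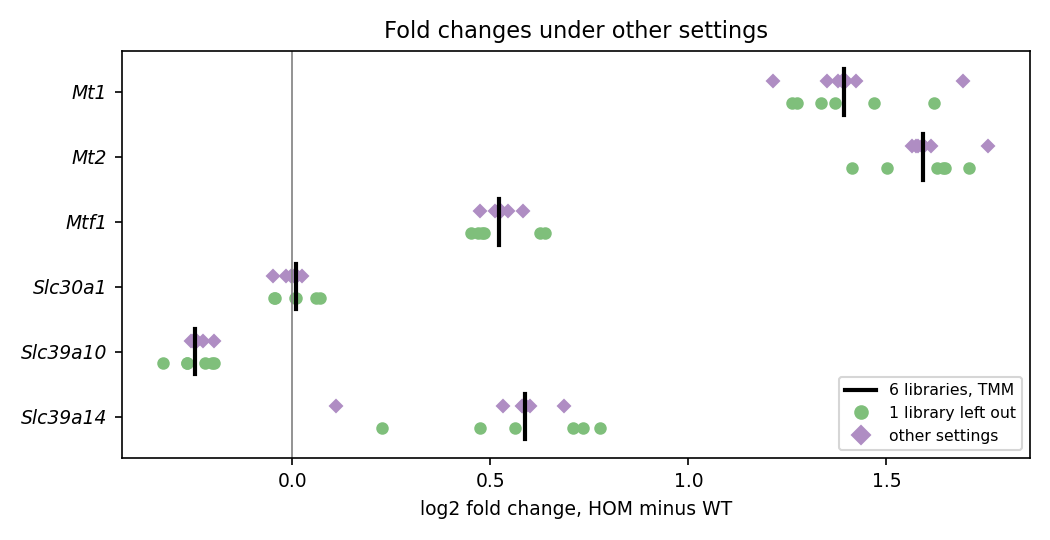
log2 fold change, HOM minus WT, of the 6 genes under each alternative, with the fit of all 6 libraries as a black bar, fits without 1 library as circles and other settings as diamonds. Mt1 and Mt2 stay above 1.2, Slc30a1 stays within 0.07 of 0, and Slc39a14 spreads from 0.11 to 0.78.

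Scaled to gene length, as reads per kilobase of annotated exon on the same scale (RPKM), the 2 metallothioneins were far more abundant than any zinc transporter. Mt2 stood at 515 ± 110.5 RPKM in HOM and 171 ± 18.0 RPKM in WT libraries, and Mt1 at 439 ± 130.3 RPKM in HOM and 167 ± 15.6 RPKM in WT libraries (SD, n = 3 each). No order can be given between the pair, since annotated coding transcripts run from 549 to 1085 bases for Mt1 and from 388 to 511 bases for Mt2. Next came the plasma membrane importer Slc39a1, at 46.8 ± 4.47 RPKM in HOM and 41.1 ± 1.88 RPKM in WT libraries, and the vesicular exporter Slc30a4, at 18.7 ± 2.94 RPKM in HOM and 16.0 ± 1.70 RPKM in WT libraries. Slc39a14 was at 14.5 ± 5.59 RPKM in HOM and 9.68 ± 1.78 RPKM in WT libraries. Slc30a1 and Slc39a10 lay close together, with 9.16 ± 0.754 and 7.64 ± 0.390 RPKM in HOM, and 9.10 ± 0.706 and 9.07 ± 0.836 RPKM in WT libraries. In WT libraries the order ran from Slc39a6 through Slc30a5, Slc39a14 and Slc30a1 to Slc39a10, and each differed from the next by less than the larger of their SDs. Mtf1 was the least abundant of the 6, at 2.69 ± 0.391 RPKM in HOM and 1.87 ± 0.223 RPKM in WT libraries.

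Of the other 21 SLC30 and SLC39 genes, 12 had enough reads to test, of which 0 rose and 1, Slc39a11, fell in edgeR's test, where 9.67% of all genes tested were higher and 11.5% lower. At an unadjusted p under 0.05, 1 was higher and 1 lower. The share of all genes under that looser limit was not counted and exceeds the 21.1% called at the adjusted one. Nothing is read from these unadjusted counts. The DESeq2 Wald test, with its own filter, called 1 of 13, beside 2715 of 15762 over all genes. The median log2 fold change of the 12 was 0.04, beside -0.0038 for all genes tested. Slc39a11, an importer with reported roles in the Golgi and nucleus, was at 2.10, 2.54 and 3.80 CPM in HOM against 5.09, 9.22 and 6.22 CPM in WT libraries. The groups did not overlap, and the log2 fold change was -1.26 (SE 0.31, edgeR adjusted p = 0.0190). It did not pass without HOM replicate 1 (adjusted p = 0.0689), without WT replicate 2 (adjusted p = 0.0692) or without both replicate 2 libraries (adjusted p = 0.0557). Slc39a8, the closest relative of Slc39a14, was at 4.84 ± 1.65 CPM in HOM and 2.51 ± 0.277 CPM in WT libraries and did not pass (log2 fold change 0.92, SE 0.31, edgeR adjusted p = 0.0566). It was named after its values were seen, and it passed without HOM replicate 2, without both replicate 2 libraries and without a filter on low counts.

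The 2 most abundant transporters of each family by CPM, outside the 6 genes and Slc39a11, did not pass the test. The log2 fold change was 0.19 for Slc39a1 (SE 0.11, edgeR adjusted p = 0.261) and 0.11 for Slc39a6 (SE 0.16, adjusted p = 0.645). It was 0.22 for Slc30a4 (SE 0.14, adjusted p = 0.275), and 0.048 for Slc30a9, a mitochondrial zinc exporter (SE 0.10, adjusted p = 0.765). Slc39a7, an importer of the endoplasmic reticulum, had 24 reads in HOM and 10 in WT libraries, but 80.6% of its exonic bases are shared with the same-strand gene Gm20427, so its count is no measure of its level. The 9 untested transporters together held 49 reads in HOM and 49 in WT libraries.

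**Figure D4:**
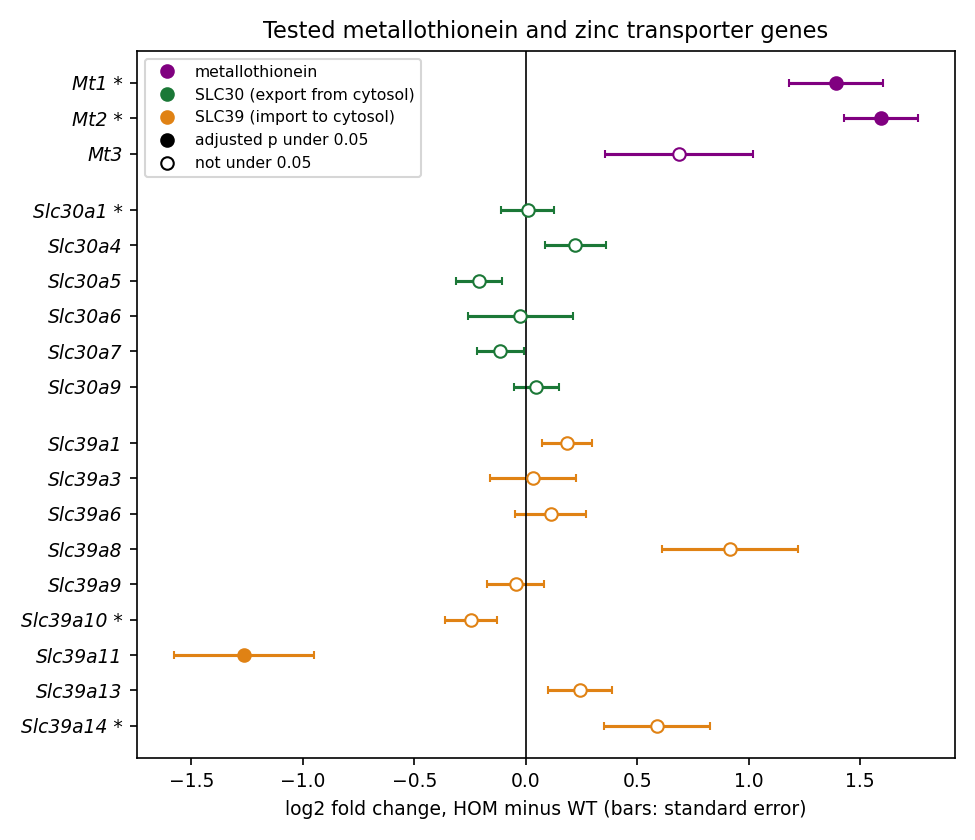
log2 fold change, HOM minus WT, with its standard error, of each tested metallothionein, SLC30 and SLC39 gene. Filled points passed an adjusted p of 0.05 over all genes, asterisks mark the listed genes, and outside Mt1 and Mt2 the one filled point is Slc39a11 at -1.26.

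Of 8 other genes reported to respond to MTF1, 7 were tested, of which 2 rose and 0 fell, beside 21.1% called in either direction over all genes, with a median log2 fold change of -0.06. At an unadjusted p under 0.05, 3 were higher and 2 lower. The share of all genes under that looser limit was not counted and exceeds the 21.1% called at the adjusted one. Nothing is read from these unadjusted counts. The DESeq2 Wald test, with its own filter, called 4 of 8, all higher and Hamp among them. Over all genes it called 2715 of 15762, with 1164 higher and 1551 lower. Pgf, a placental growth factor, was at 32.7, 24.4 and 38.6 CPM in HOM against 20.7, 18.0 and 16.5 CPM in WT libraries (log2 fold change 0.79, SE 0.18, edgeR adjusted p = 0.0144). It did not pass without HOM replicate 3 (adjusted p = 0.0586) or WT replicate 3 (adjusted p = 0.0554). Gclc, the catalytic subunit of the enzyme that starts glutathione synthesis, was at 114, 56.6 and 97.7 CPM in HOM against 49.0, 51.7 and 58.2 CPM in WT libraries. For Gclc the groups overlapped through HOM replicate 2, and the log2 fold change was 0.75 (SE 0.22, edgeR adjusted p = 0.0341). Its adjusted p was 0.121 without HOM replicate 1 and 0.112 with Y-linked reads in the model, and lay between 0.0650 and 0.116 without HOM replicate 3 or any 1 WT replicate. The number of genes called was 1 without HOM replicate 1, 0 without HOM replicate 3 and 1 without WT replicate 1 or 3. Without HOM replicate 2 it was 5, of which 2 were lower, beside 4002 of 14531 over all genes.

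Among genes that handle iron and copper, which metallothioneins and Slc39a14 can bind or carry, 3 of 17 tested rose and 2 fell, beside 9.67% higher and 11.5% lower over all genes, with a median log2 fold change of -0.06. Both ferritin genes, which encode the iron storage protein, were among those that rose. Fth1, the heavy chain, was at 1039, 666 and 686 CPM in HOM against 318, 341 and 376 CPM in WT libraries (log2 fold change 1.21, SE 0.18, edgeR adjusted p = 0.0025). For Ftl1, the light chain, the log2 fold change was 0.57 (SE 0.13, edgeR adjusted p = 0.0137). Leaving out HOM replicate 1 gave an adjusted p of 0.0529, HOM replicate 3 one of 0.0524, and WT replicate 1 one of 0.0577. Slc31a2, a copper transporter, rose as well (log2 fold change 0.53, SE 0.14). Cp, the copper-binding ferroxidase ceruloplasmin, fell, at -0.54 on the log2 scale (SE 0.14, adjusted p = 0.0210), as did Atp7a, the copper-exporting pump, at -0.41 (SE 0.12). The adjusted p of Cp was 0.0855 without HOM replicate 3, 0.0628 without WT replicate 1 and 0.0610 without WT replicate 3. Of the whole list, 2 genes were called without HOM replicate 1, 1 without HOM replicate 3, 1 without WT replicate 1 and 2 without WT replicate 3. Ferritin genes have many processed copies, and Ftl1 shares 26.5% of its exonic bases with Gm10252 on the opposite strand, so their counts are uncertain to that extent.

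Of 12 genes tested from a list of the glucocorticoid receptor and its responsive genes, 6 rose and 2 fell, beside 9.67% higher and 11.5% lower over all genes, with a median log2 fold change of 0.36. This list was chosen with earlier results of these data known, so its counts are a description. The part of glucocorticoids in the metallothionein values was not tested. Fkbp5, a chaperone partner of the receptor, was at 203, 111 and 180.3 CPM in HOM against 22.9, 29.6 and 39.1 CPM in WT libraries (log2 fold change 2.43, SE 0.25, edgeR adjusted p = 0.00058). HOM replicate 2 was the lowest HOM library for Fkbp5, as it was for Mt1. The log2 fold change was 1.76 (SE 0.15) for Zbtb16, a transcription factor, and 1.15 (SE 0.14) for Tsc22d3, known as GILZ. The 2 that fell were Nr3c1, the receptor itself, at -0.58 (SE 0.12), and Hsd11b1, which activates glucocorticoids, at -0.79 (SE 0.18). Without HOM replicate 1, 5 genes were called, and without HOM replicate 3, 4 were.

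Of 11 tested genes of interleukin-6 and STAT3 signalling, 6 rose and 0 fell, beside 9.67% higher and 11.5% lower over all genes. The median log2 fold change of the list was 0.52. This list too was chosen with earlier results known, so its counts are a description. At an unadjusted p under 0.05, 7 were higher and 0 lower. The share of all genes under that looser limit was not counted and exceeds the 21.1% called at the adjusted one. Nothing is read from these unadjusted counts. Il6ra, the receptor, was at 45.5, 31.5 and 38.7 CPM in HOM against 9.26, 7.31 and 11.05 CPM in WT libraries (log2 fold change 2.05, SE 0.19, edgeR adjusted p = 0.00046). For Lifr, which signals through the same chain, gp130, it was 0.67 (SE 0.12), and for Lcn2, an acute phase protein, 1.72 (SE 0.39, adjusted p = 0.0140). Lcn2 did not pass without WT replicate 1 (adjusted p = 0.0547) or WT replicate 2 (adjusted p = 0.0526). The cytokine gene Il6 did not pass, at 149, 55.03 and 151 CPM in HOM against 131, 167 and 169 CPM in WT libraries. The number called was 3 without HOM replicate 3, 2 without WT replicate 1 and 4 without HOM replicate 1 or WT replicate 2.

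**Figure D5:**
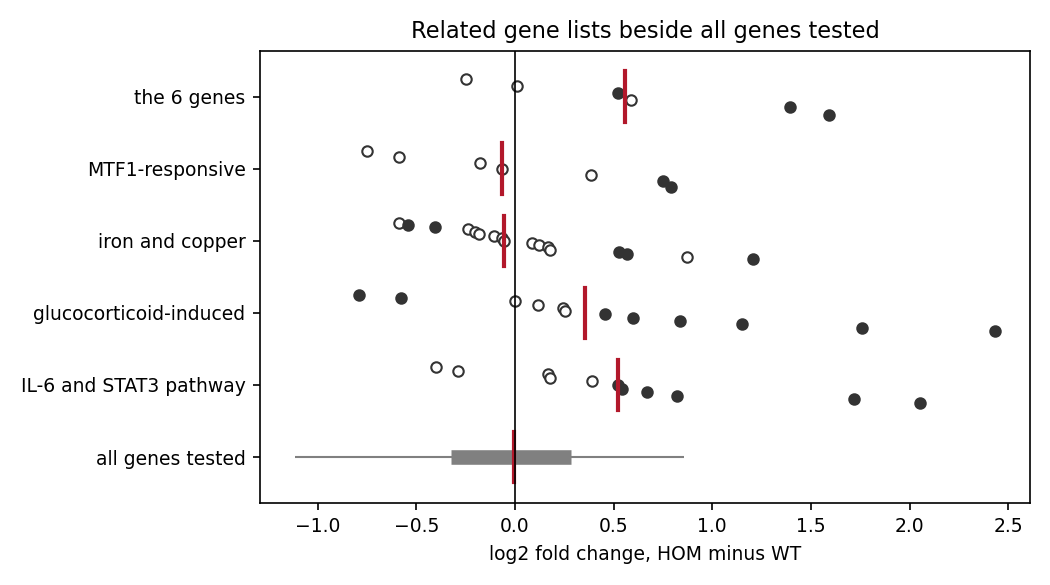
log2 fold change, HOM minus WT, of each tested gene in the related lists, as filled points where the adjusted p was under 0.05 and open points otherwise, with the list's median as a red bar. The lowest row gives all 14099 genes tested, with the middle 50% as a thick line, the range from the 5th to the 95th percentile as a thin line, and the median at -0.0038.

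Across the 6 libraries, the log2 levels most like that of Mt1 among 11111 other genes, each averaging 5 CPM or more, belonged to Slc4a8, Cers5, Ralgps1, Arl8a and Tmod1, with Pearson r of 0.996 to 0.999. Slc4a8, a bicarbonate transporter, was at 156, 66.7 and 145 CPM in HOM against 33.8, 39.6 and 29.6 CPM in WT libraries, with the same low HOM replicate 2. By the same measure Mt2 ranked 278 (r = 0.952), Mtf1 665 (r = 0.914), Slc39a14 4617 (r = 0.277), Slc30a1 5611 (r = -0.012) and Slc39a10 9017 (r = -0.783). These are descriptions over 6 libraries that share the split by genotype, and Tmod1 shares 32.6% of its exonic bases with Tstd2 on the opposite strand.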

How the data were processed

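Total RNA libraries were made with a stranded kit after removal of ribosomal RNA, per the labels' protocols. Counts of reads per Ensembl gene, not normalized, were deposited by the authors for each library. Per the submitters' processing notes, the build was mm10 and the tools were Trimmomatic 0.32, STAR 2.5.2b and HTSeq 0.6.1. Neither the strand setting nor the annotation release is given in the sources used here. Of 39059 genes, 38861 matched GENCODE release M21 on GRCm38, which supplied names, positions and exon lengths. Lines that name no gene, with 45.0 to 49.8% of the reads in a file, were left out.

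The analysis used edgeR 4.0.16 under R 4.3.3: filterByExpr (minimum count 10, minimum total 15), TMM scaling, and the quasi-likelihood test of HOM against WT without covariates. Benjamini-Hochberg adjustment ran over the 14099 genes tested, and genes under 0.05 were called. The test was checked on simulated data. Log2 fold changes are HOM minus WT, and the SE is their size divided by the square root of F. Levels for likeness to Mt1 are log2(CPM + 1). Libraries of 1 genotype differed by more than sampling noise (chi-square per gene 9.16 to 25.1).

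The 6 genes and all lists were chosen with earlier results of these data known. The genes named are the 6 and the other metallothioneins, called SLC30 and SLC39 genes and the 2 most abundant not called per family, up to 3 called genes per other list by smallest p, the 5 most like Mt1, and Lmna. Others were named after their values were seen. Alternatives tried were scaling by DESeq2 size factors or by totals alone, the Wald test of DESeq2 1.42.0, no filter, a filter of 1 CPM in 3 libraries, the replicate number as a block, a covariate for Y-linked reads, omission of both replicate 2 libraries, and omission of each library. Metal response element cores were searched as text in RefSeq promoters. Read counts limit low genes, and 1 read equals 0.106 to 0.159 CPM.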

Additional observations from a re-analysis of the deposited data

How the results depend on the processing

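Of 406 values of 29 single genes under the alternatives, 364 kept both their direction and their side of the threshold, and 42 did not, among them 8 of Mtf1. The log2 fold change of Slc39a6 turned to -0.014 without HOM replicate 1 and -0.019 without WT replicate 1, and reached 0.218 without WT replicate 3. That of Slc30a1 also changed direction under some alternatives, and ran from -0.050 without both replicate 2 libraries to 0.069 without HOM replicate 3. The number of genes called was 1932 with a covariate for Y-linked reads and ran from 1576 to 4002 with 1 library left out. With 1 library left out, the other zinc transporters called ran from 0 to 2, MTF1-responsive genes from 0 to 5 and iron and copper genes from 1 to 6. On the list of the glucocorticoid receptor and its responsive genes, those called in either direction ran from 4 to 8. Interleukin-6 and STAT3 genes called ran from 2 to 8. Without a filter on low counts, 2 of 21 other zinc transporters were called, 1 higher and 1 lower. Of 8 MTF1-responsive genes, 5 were called, 3 higher and 2 lower. Over all genes this setting called 4054 of 25748. MTF1-responsive genes called numbered 1 of 7 with the Y-linked covariate, 4 of 8 without both replicate 2 libraries and 4 of 8 with the DESeq2 Wald test. Over all genes these settings called 1932 of 14099, 3858 of 14359 and 2715 of 15762. Iron and copper genes called numbered 3 of 17 with the Y-linked covariate. The cause was not tested. With the replicate number as a block, 3 iron and copper genes were called, and 2437 genes in all. Over all genes, same-numbered libraries did not deviate together (correlation of deviations -0.036, 0.022 and -0.096). The replicate 2 libraries still shared the high level of Gm42418, and whether same-numbered libraries were handled together was not tested. Depth limits Mt4, Slc39a11 and the untested transporters.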

Other observations

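Hamp, which encodes the iron hormone hepcidin and is reported as a target of MTF1, did not pass the filter on low counts, and was singled out after its values were seen. It had 13, 3 and 13 reads in HOM against 0, 0 and 0 in WT libraries. Against a floor of 3 reads over the WT group (0.132 CPM), the pooled HOM level of 1.20 CPM was 9.10-fold higher. The floor allows for counting error in the WT group only, not for that of the HOM reads or for the spread between libraries. Hamp has a near-identical neighbour, Hamp2, so its count is uncertain.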
